A study of Mus musculus with 7 samples.

Results

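The genes of the autophagy machinery, 36 in number and listed by name, were followed in haematopoietic stem cells (HSCs) that had lost Mettl3, the catalytic subunit of the writer of N6-methyladenosine (m6A) on mRNA. Of 23038 genes in the table, 35 members were found by symbol. The remaining one, Atg101, stands there under its older symbol 9430023L20Rik and was matched by its NCBI Gene identifier, 68118. The mutant group was Mx1-cre; Mettl3 fl/fl (4 libraries) and the control group was Cre-negative littermates (3 libraries), all C57BL/6. Animals of both groups were given 5 injections of 10 µg pIpC, which switches on the interferon-responsive Mx1 promoter, and were killed 10 days after the last one. The Mx1 promoter is active in many interferon-responsive cell types besides HSCs, and the controls carry no Cre. Each library was made by Smart-seq2 from 150 Lineage- Sca1+ cKit+ CD150+ CD48- bone marrow cells and read as pairs of 100 bases. The values are RPKM (read counts divided by gene length and library size) that the authors had merged into 1 value per gene and group, so no spread between animals can be given, no test was possible, and every difference is one of 2 group values without a replicate check.

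Autophagy encloses cytoplasm in a double membrane, the autophagosome, and delivers it to the lysosome for breakdown. The ULK1 kinase complex starts the process, a lipid kinase complex built on Beclin 1 marks the membrane with phosphatidylinositol 3-phosphate (PI3P), and the ubiquitin-like Atg8 proteins (LC3 and GABARAP) are then attached to the membrane lipid by a conjugation cascade. Receptors such as p62 bind cargo on one side and Atg8 proteins on the other, and in blood the pathway is known for removing mitochondria and for maintaining stem cells.

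Autophagy transcripts went both ways in mutants. Differences are given as log2((mutant + 1) / (control + 1)); the added 1 RPKM shrinks differences of weakly expressed genes. Folds are plain ratios of the group values. Of the 36 members, 16 were higher in mutants and 20 were lower, so 55.6% were lower, against 47.4% of the 14539 genes with reads and 48.0% of the 11099 genes whose mean over both groups was at least 1 RPKM. At least 1.5-fold apart on the log2 scale were 6 members that were higher, Wipi1, Atg4c, Atg16l2, Atg101, Uvrag and Map1lc3a, and 4 that were lower, Ulk1, Gabarapl1, Atg12 and Atg10. This size was reached by 13.0% of genes with reads on the higher side and by 10.4% on the lower side, or 14.3% and 11.1% of the genes with a mean of at least 1 RPKM. Taken in either direction, 10 of 36 members (27.8%) passed it, close to the 23.4% of genes with reads and the 25.4% of genes with a mean of at least 1 RPKM. The number of members past this size is therefore not a result about autophagy genes. Their median log2 difference was -0.11, against 0.02 over all genes with reads. Their mean was -0.00087, against 0.024 over the same genes. The 2 summaries differ, and a shift of the members as a whole was not tested. Wipi1 and Atg4c alone were 2-fold apart on this scale, and Map1lc3a at 0.61 and Rb1cc1 at 0.54 lay just inside and just outside 1.5-fold.

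**Figure D1:**
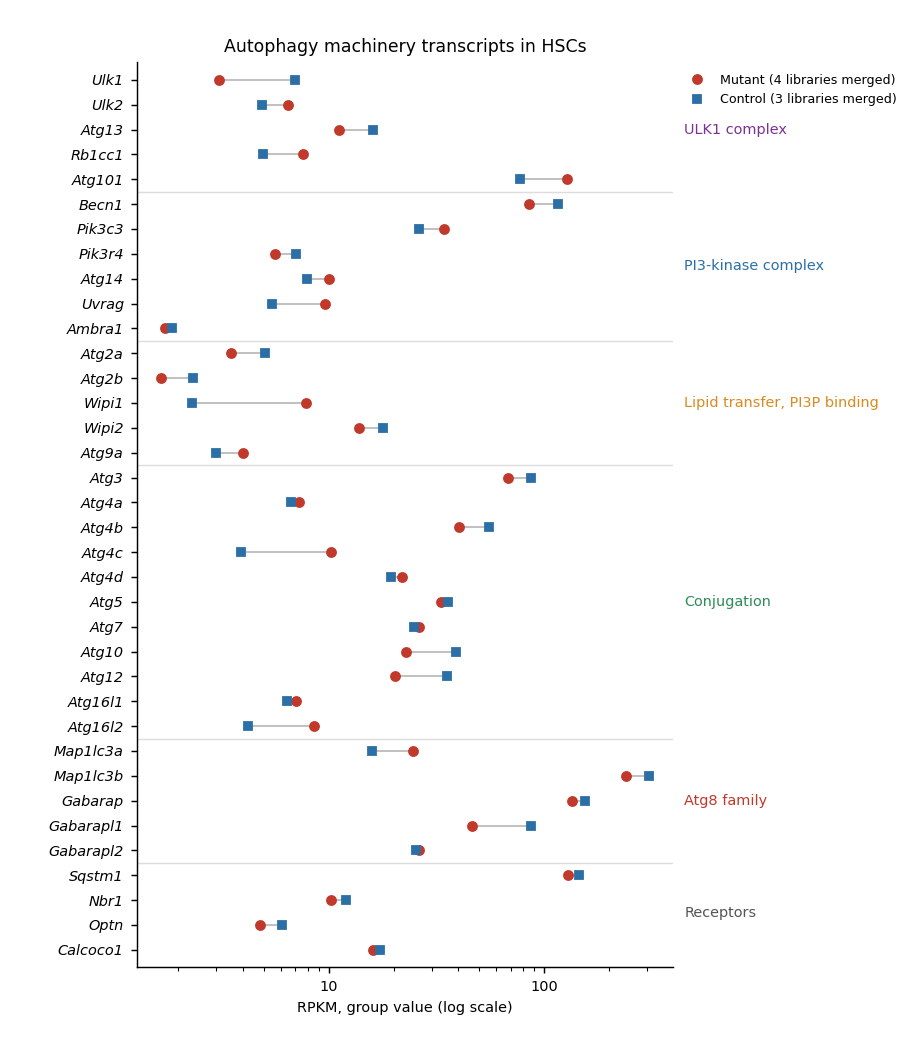
RPKM of the 36 members on a log axis, in rows ordered by role, with circles for the mutant value (4 libraries merged) and squares for the control value (3 libraries merged). Wipi1, Atg4c, Atg16l2 and Ulk1 have the widest gaps, and Map1lc3b is the highest member in both groups.

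The targeted gene was checked first. Mettl3 was at 9.60 RPKM in mutants and 49.8 RPKM in controls, 19.3% of the control level. All 12 HSC markers had reads, including Procr (46.0 and 53.3 RPKM in mutants and controls), Slamf1, which encodes CD150 (27.1 and 25.9 RPKM), and Mecom (10.3 and 9.88 RPKM). Summed over the list, HSC markers were at 789 RPKM in mutants and 992 RPKM in controls. Of 13 macrophage and monocyte markers, 10 had reads, with a sum of 5.29 RPKM in mutants and 2.99 RPKM in controls. Of the 10, 8 were higher in mutants, where 7649 of all 14539 genes with reads were. Several of the 8 were near the value of genes without reads in controls, such as Cd5l (0.513 RPKM in mutants, 0.0203 RPKM in controls). Ly6c2 counts as higher at 0.0518 RPKM in mutants and 0.0517 RPKM in controls. C1qa (1.38 RPKM in mutants, 0.212 RPKM in controls) and Cd14 (0.790 RPKM in mutants, 0.0277 RPKM in controls) were past 1.5-fold on the higher side and C1qb (0.904 RPKM in mutants, 1.87 RPKM in controls) on the lower side, whereas Emr1 (F4/80), Csf1r and Marco were at the value of genes without reads. Neutrophil markers (5 of 8 with reads) summed to 6.56 RPKM in mutants and 14.6 RPKM in controls. Erythroid markers (6 of 8) summed to 64.0 RPKM in mutants and 37.4 RPKM in controls, and the highest fold differences in the list were those of the globins Hbb-b2 (19.4 RPKM in mutants, 7.32 RPKM in controls) and Hbb-b1 (7.79 RPKM in mutants, 2.30 RPKM in controls), while Hba-a1 had no reads. B cell markers (3 of 6) summed to 133 RPKM in each group, nearly all of it Cd79b, with Cd79a, Ms4a1 and Pax5 without reads. Among T and natural killer cell markers, 3 of 7 had reads, with sums of 109 and 125 RPKM in mutants and controls. These sums hide opposite differences. Nkg7 was at 62.3 RPKM in mutants and 124 RPKM in controls, and Ccl5 at 46.6 RPKM in mutants and 0.270 RPKM in controls. The log2 difference of Ccl5, 5.23, was the highest of all genes with reads. Cd3e, Cd3g and Cd8a had no reads. The part of other cells in the differences below was not tested, and fewer cells of a type cannot be told apart from less RNA per cell in such libraries.

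The stretch around the start site (250 bases before to 50 after) was available for 30 members from RefSeq (GRCm38.p6, the same assembly as the mm10 build of the study). It is not listed for Atg12, Atg16l1, Becn1, Map1lc3a, Pik3c3 and Rb1cc1. The E-box CACGTG, the core of the letters that transcription factors of the TFEB family bind, was found in 4 of the 30 (13.3%), Atg3, Atg5, Atg7 (at an internal annotated start) and Atg14, and in 7.15% of all 32851 promoter windows. The sequence TGACGTCA, bound by factors of the CREB and ATF family, was found in Atg5 and Atg16l2 (6.67% of members, 1.79% of all windows). Member shares count genes, and the 30 members have 33 windows, whereas the other shares count windows, so the 2 are not strictly alike. The AP-1 letters TGANTCA (7.81% of all windows) and the forkhead letters GTAAACA (3.65%) were in none of the 30, which says only that these letters are absent from the windows. Both strands were searched, none of the matches overlap, and the last 3 sequences were chosen after values were seen. None of the 4 members with an E-box was 1.5-fold apart: Atg3 had a log2 difference of -0.34, Atg5 of -0.11, Atg7 of 0.07 and Atg14 of 0.30. Windows are shown for the member farthest up (Wipi1) and the one farthest down (Ulk1), neither with a match, and for 4 members with a match, which stands in capitals.

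Wipi1, chr11:109611340-109611639, minus strand: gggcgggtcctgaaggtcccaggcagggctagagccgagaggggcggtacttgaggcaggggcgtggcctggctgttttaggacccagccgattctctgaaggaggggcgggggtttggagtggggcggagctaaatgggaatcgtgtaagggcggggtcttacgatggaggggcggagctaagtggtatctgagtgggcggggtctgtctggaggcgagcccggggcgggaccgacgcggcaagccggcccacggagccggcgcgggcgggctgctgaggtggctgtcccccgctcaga
Ulk1, chr5:110810032-110810331, minus strand: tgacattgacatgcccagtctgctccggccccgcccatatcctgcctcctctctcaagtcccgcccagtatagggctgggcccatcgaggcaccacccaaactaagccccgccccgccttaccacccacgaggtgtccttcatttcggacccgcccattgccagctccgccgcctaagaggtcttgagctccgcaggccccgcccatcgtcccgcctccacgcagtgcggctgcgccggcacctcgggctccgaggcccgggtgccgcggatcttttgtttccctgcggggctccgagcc
Atg16l2, chr7:101302039-101302338, minus strand: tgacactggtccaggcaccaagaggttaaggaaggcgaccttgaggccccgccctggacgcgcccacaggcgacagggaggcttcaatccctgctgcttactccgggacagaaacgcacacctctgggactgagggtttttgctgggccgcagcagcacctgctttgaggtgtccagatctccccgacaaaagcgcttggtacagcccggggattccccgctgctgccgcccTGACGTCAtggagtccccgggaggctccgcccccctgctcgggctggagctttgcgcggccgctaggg
Atg3, chr16:45158579-45158878, plus strand: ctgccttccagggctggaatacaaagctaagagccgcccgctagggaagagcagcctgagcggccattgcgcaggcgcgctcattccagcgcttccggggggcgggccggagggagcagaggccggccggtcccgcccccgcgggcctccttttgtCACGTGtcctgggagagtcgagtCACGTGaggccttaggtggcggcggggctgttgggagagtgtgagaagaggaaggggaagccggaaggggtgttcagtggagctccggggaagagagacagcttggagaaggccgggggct
Atg5, chr10:44268089-44268388, plus strand: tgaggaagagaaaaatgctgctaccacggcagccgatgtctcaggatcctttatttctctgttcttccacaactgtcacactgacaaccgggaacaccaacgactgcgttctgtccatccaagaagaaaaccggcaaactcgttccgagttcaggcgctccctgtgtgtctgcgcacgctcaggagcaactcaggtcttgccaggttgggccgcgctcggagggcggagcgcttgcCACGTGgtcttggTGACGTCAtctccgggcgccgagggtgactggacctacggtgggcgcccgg
Atg14, chr14:47568385-47568684, minus strand: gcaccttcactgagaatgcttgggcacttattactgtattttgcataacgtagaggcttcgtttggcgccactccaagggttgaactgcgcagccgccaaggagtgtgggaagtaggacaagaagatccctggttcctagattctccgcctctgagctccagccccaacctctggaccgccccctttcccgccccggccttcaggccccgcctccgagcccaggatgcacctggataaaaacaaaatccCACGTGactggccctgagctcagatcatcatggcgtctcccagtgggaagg

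In these windows Atg3 held its 2 E-boxes 94 and 71 bases before the start, Atg5 held its E-box 14 bases before it, and in Atg14 the match began 1 base before the start. The GC content ran between 57.7% in Atg14 and 69.0% in Wipi1 among the 6 shown.

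The ULK1 complex, which receives the signal from nutrient-sensing kinases, was divided. Ulk1, the initiating kinase (chromosome 5, 110784489 to 110810120), was at 3.10 RPKM in mutants and 6.94 RPKM in controls, 2.24-fold lower in mutants with a log2 difference of -0.95. Only 4.29% of genes with a mean of at least 1 RPKM were as far down. Its paralogue Ulk2 stood on the other side, at 6.47 RPKM in mutants and 4.91 RPKM in controls. Ulk1 was thus 0.479 times Ulk2 in mutants and 1.41 times Ulk2 in controls, so the order of these kinases was turned round. Among the partners of the kinases, Atg101, which stabilises Atg13 in the complex (chromosome 15, 101284301 to 101290947), was at 128 RPKM in mutants and 77.0 RPKM in controls, 1.66-fold higher. Atg13, the adaptor that links kinase and scaffold, was at 11.2 RPKM in mutants and 16.0 RPKM in controls. Rb1cc1, which encodes the large scaffold FIP200, was at 7.61 RPKM in mutants and 4.93 RPKM in controls. Atg101 was the highest of the 5 genes in both groups.

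Genes of the PI3P-producing complex stayed closer together, with log2 differences between -0.43 and 0.72. Becn1, which encodes the platform protein Beclin 1, was at 85.3 RPKM in mutants and 116 RPKM in controls. The catalytic subunit gene Pik3c3 (VPS34) was at 34.2 RPKM in mutants and 26.2 RPKM in controls, and Pik3r4, which encodes its regulatory subunit VPS15, at 5.63 RPKM in mutants and 7.05 RPKM in controls. Atg14 and Uvrag encode alternative partners of Beclin 1, the first acting at forming autophagosomes and the other also on endosomes. Atg14 was at 10.0 RPKM in mutants and 7.94 RPKM in controls. Uvrag (chromosome 7, 98886742 to 99141167) was at 9.59 RPKM in mutants and 5.43 RPKM in controls, 1.76-fold higher and the only gene of the complex past 1.5-fold. Ambra1, a Beclin 1 binding regulator, was low in both groups, at 1.74 RPKM in mutants and 1.87 RPKM in controls.

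At the step of membrane growth, Wipi1 had the largest difference of all members. This gene encodes a PI3P-binding propeller protein (chromosome 11, 109573521 to 109611389), and it was at 7.83 RPKM in mutants and 2.31 RPKM in controls, 3.39-fold higher with a log2 difference of 1.41. Among genes with a mean of at least 1 RPKM, 1.55% were as far up. Its relative Wipi2, which recruits the conjugation machinery through Atg16l1, was at 13.8 RPKM in mutants and 17.8 RPKM in controls. Wipi2 exceeded Wipi1 by 1.76-fold in mutants and by 7.70-fold in controls. The lipid transfer genes Atg2a (3.53 RPKM in mutants, 5.04 RPKM in controls) and Atg2b (1.66 RPKM in mutants, 2.34 RPKM in controls) were both lower, and their ratio was 2.13 in mutants and 2.16 in controls. Atg9a, the membrane-spanning lipid scramblase, was at 3.98 RPKM in mutants and 3.00 RPKM in controls.

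**Figure D2:**
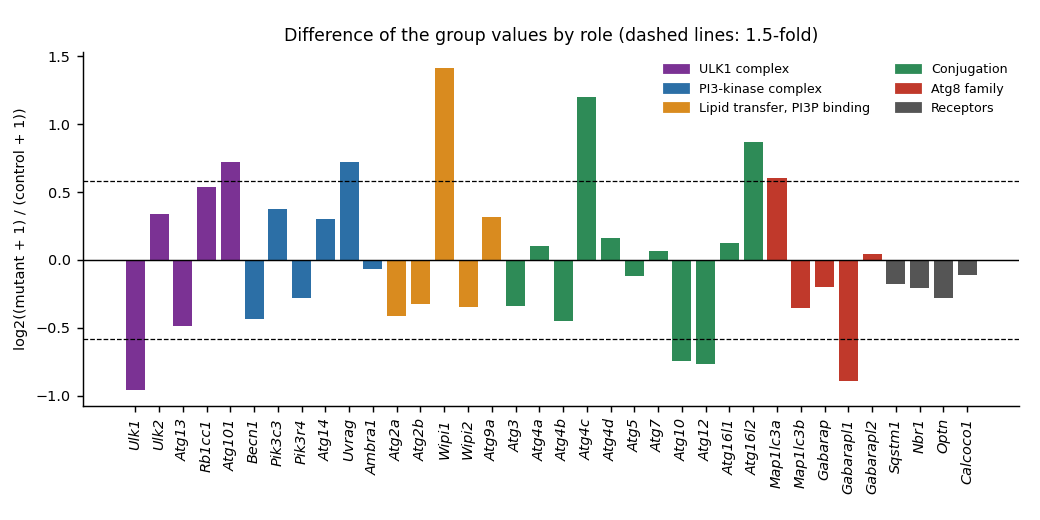
Bars give log2((mutant + 1) / (control + 1)) for each of the 36 members, coloured by role, with dashed lines at 1.5-fold. Both directions occur in every role except the 4 receptors, which lie between -0.28 and -0.11.

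Of the 11 genes of the conjugation cascade, the largest group by role, 4 were past 1.5-fold (36.4%, against 23.4% of all genes with reads), with 2 on each side. Atg12, the ubiquitin-like protein joined to Atg5, was at 20.3 RPKM in mutants and 35.2 RPKM in controls, 1.73-fold lower. Atg10, the E2-like enzyme that carries Atg12 to Atg5 (chromosome 13, 90935348 to 91224725), was at 22.8 RPKM in mutants and 38.8 RPKM in controls, 1.70-fold lower. Atg12 and its own enzyme were thus both lower, while their target and their shared activating enzyme differed little. A link between these differences was not tested. Atg5 was at 33.1 RPKM in mutants and 35.9 RPKM in controls, and Atg7, the E1-like enzyme of both branches, at 26.2 RPKM in mutants and 24.97 RPKM in controls. The other E2-like enzyme, Atg3, which passes Atg8 proteins to the lipid, was at 68.2 RPKM in mutants and 86.6 RPKM in controls.

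Atg16l1 directs the Atg12-Atg5 conjugate to the membrane and was at 7.05 RPKM in mutants and 6.39 RPKM in controls. Its paralogue Atg16l2 (chromosome 7, 101286325 to 101302267) was at 8.51 RPKM in mutants and 4.20 RPKM in controls, 2.03-fold higher. As with Ulk1 and Ulk2, the order of the pair turned round: Atg16l1 was 0.828 times Atg16l2 in mutants and 1.52 times Atg16l2 in controls.

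The Atg4 proteases trim Atg8 proteins before conjugation and release them from lipid afterwards. Atg4c (chromosome 4, 99189159 to 99297258) was at 10.3 RPKM in mutants and 3.89 RPKM in controls, 2.64-fold higher with a log2 difference of 1.20. Atg4b, known as the main protease of the family, was at 40.4 RPKM in mutants and 55.4 RPKM in controls. Atg4b made up 50.6% of the summed Atg4 RPKM in mutants and 64.8% in controls, and Atg4c 12.9% in mutants and 4.56% in controls. The sum of the 4 proteases was 79.7 RPKM in mutants and 85.4 RPKM in controls. Atg4d was at 21.8 RPKM in mutants and 19.4 RPKM in controls, and Atg4a at 7.29 RPKM in mutants and 6.70 RPKM in controls.

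**Figure D3:**
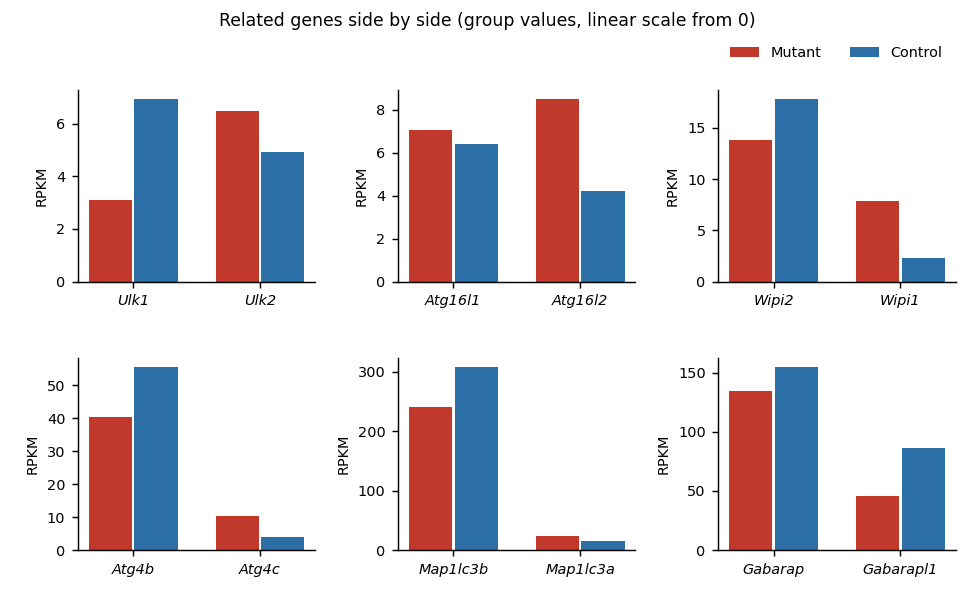
RPKM of 6 pairs of related genes on linear axes that start at 0, with the mutant bar left of the control bar (1 merged value each, no error bars). The order within the pair differs between mutants and controls for Ulk1 and Ulk2 and for Atg16l1 and Atg16l2. Pairs whose ratio differed little are not drawn: Atg2a over Atg2b (2.13 in mutants, 2.16 in controls) and Atg4a over Atg4d (0.334 in mutants, 0.345 in controls).

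Atg8 genes were the most abundant part of the machinery. Map1lc3b (LC3B, chromosome 8, 121590438 to 121598760) ranked first of the 36 members, at 240 RPKM in mutants and 307 RPKM in controls, and Gabarap ranked next, at 134 RPKM in mutants and 154 RPKM in controls. Gabarapl1 (chromosome 6, 129533192 to 129542331) was at 46.1 RPKM in mutants and 86.6 RPKM in controls, 1.88-fold lower with a log2 difference of -0.89. Exons of Gabarapl1 overlap an antisense gene, 1700101I11Rik, over 28.3% of their bases, and that gene was at 62.7 RPKM in mutants and 120 RPKM in controls. Smart-seq2 does not mark strand, so reads from the shared bases cannot be told apart. Map1lc3a (LC3A, chromosome 2, 155276364 to 155278073) went the other way, at 24.6 RPKM in mutants and 15.8 RPKM in controls, 1.56-fold higher, and just under the 1.5-fold size when mutant values were rescaled by the median ratio of all genes. Gabarapl2 was at 26.4 RPKM in mutants and 25.5 RPKM in controls. Summed over the 5 genes, the family was at 471 RPKM in mutants and 589 RPKM in controls. Map1lc3b supplied 50.9% of the sum in mutants and 52.1% in controls, Gabarapl1 9.79% in mutants and 14.7% in controls, and Map1lc3a 5.21% in mutants and 2.68% in controls.

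All 4 receptor genes were lower in mutants, where 47.4% of all genes with reads were, and none reached 1.5-fold. Their log2 differences, between -0.28 and -0.11, were smaller in size than the median absolute difference of those genes, 0.29. Sqstm1 (p62, chromosome 11, 50200152 to 50210820), which brings ubiquitin-tagged cargo to LC3, came after Map1lc3b and Gabarap in both groups, at 129 RPKM in mutants and 146 RPKM in controls. Nbr1, a related ubiquitin-binding receptor, was at 10.3 RPKM in mutants and 12.0 RPKM in controls. Optn, known as a receptor for damaged mitochondria, was at 4.80 RPKM in mutants and 6.05 RPKM in controls, and Calcoco1, a receptor for endoplasmic reticulum, at 16.0 RPKM in mutants and 17.3 RPKM in controls.

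Members differed by level. Of the 7 with a mean of 50 RPKM or more, 6 were lower in mutants (Map1lc3b, Gabarap, Sqstm1, Becn1, Atg3 and Gabarapl1) and Atg101 was higher, while 51.5% of all 2482 genes at this level were lower. The median log2 difference of these 7 was -0.34, against -0.01 for all genes at this level. Of 13 members between 10 and 50 RPKM, 8 were lower, against 44.8% of 3715 genes. Of 16 members under 10 RPKM, 10 were higher and 6 lower (37.5% lower, against 47.4% of the 8342 genes at this level). Their median was 0.21, against 0.01 for all genes at this level. These levels were set after the values were seen, and the direction of the highest members is that of a few genes. Summed over all 36 members, RPKM came to 1231 in mutants and 1392 in controls, a ratio of 0.884, while the sums over all genes with reads had a ratio of 0.992.

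**Figure D4:**
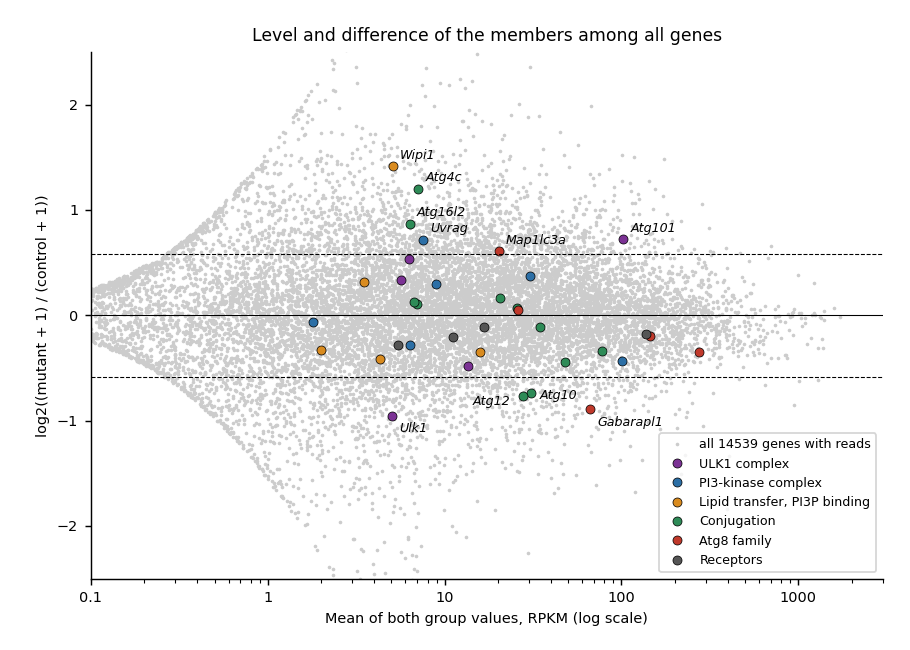
The log2 difference of each gene is plotted against its mean RPKM over both groups (log axis), with all 14539 genes with reads in grey and the 36 members in colours by role; 1065 grey points lie outside the axes. Members sit inside the cloud of all genes, and the 10 past 1.5-fold (dashed lines) are named.

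Longer and shorter members, and those with more or fewer m6A-type letters, showed little relation to the log2 difference. The letters GGACT, a common core of m6A sites, occurred at a median of 1.20 per kb in the longest annotated coding transcript of the members and at 1.04 per kb in those of 10527 genes with a mean of at least 1 RPKM. Gabarapl1 had the highest density among the members, 2.75 per kb, followed by Sqstm1 with 2.62 and Atg4c with 2.20, while Gabarap and Map1lc3a had none. The rank correlation of this density with the log2 difference was -0.03 over the 36 members and -0.004 over the 10527 genes. All these points share the same 7 libraries, and letters in a transcript do not show that it is methylated. For transcript length the rank correlation was 0.01 over the members and 0.03 over all.

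Other genes of the pathway were read in the same way, and their counts stand beside the 47.4% of all genes with reads that were lower in mutants and the 23.4% that were past 1.5-fold. Upstream, 10 of 19 genes of mTORC1 and AMPK signalling with reads were higher, with a median log2 difference of 0.03. Rraga and Rragb, GTPases that bring mTORC1 to the lysosome, were at 14.0 RPKM in mutants and 7.40 RPKM in controls and at 13.2 RPKM in mutants and 6.40 RPKM in controls. Prkaa2, a catalytic subunit of AMPK, was at 0.333 RPKM in mutants and 1.78 RPKM in controls, whereas the other catalytic subunit gene, Prkaa1, was at 5.31 RPKM in mutants and 5.40 RPKM in controls. Mtor itself was at 3.69 RPKM in mutants and 5.47 RPKM in controls.

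Among 9 transcription factors known to act on autophagy genes, 7 were lower, where 47.4% of all genes were. Relatives within the TFEB family, which switches on lysosome and autophagy genes, were on both sides: Tfeb was at 3.60 RPKM in mutants and 1.58 RPKM in controls, Tfe3 at 3.78 RPKM in mutants and 6.38 RPKM in controls, and Mitf at 1.64 RPKM in mutants and 4.50 RPKM in controls. Tfec, the most abundant of the family, differed little, at 15.7 RPKM in mutants and 16.6 RPKM in controls. At the fusion step, 6 of 8 genes with reads were lower, and the 2 past 1.5-fold, a share close to that of all genes, encode effectors of Rab7. Plekhm1 was at 0.903 RPKM in mutants and 2.71 RPKM in controls, and Rilp at 3.78 RPKM in mutants and 7.67 RPKM in controls. Vamp7 had no reads. Of 10 other core genes, 6 were lower and 1 passed 1.5-fold: Bcl2l1, which encodes the Beclin 1 binding survival protein Bcl-xL, at 23.1 RPKM in mutants and 13.4 RPKM in controls. Of 17 other receptors with reads, 10 were lower, and the 2 past 1.5-fold were higher. Tollip was at 19.4 RPKM in mutants and 10.9 RPKM in controls, and Ncoa4, the receptor for ferritin, at 7.17 RPKM in mutants and 4.38 RPKM in controls. The medians of these lists lay between -0.17 (fusion) and 0.03 (mTORC1 and AMPK), beside -0.11 for the machinery.

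**Figure D5:**
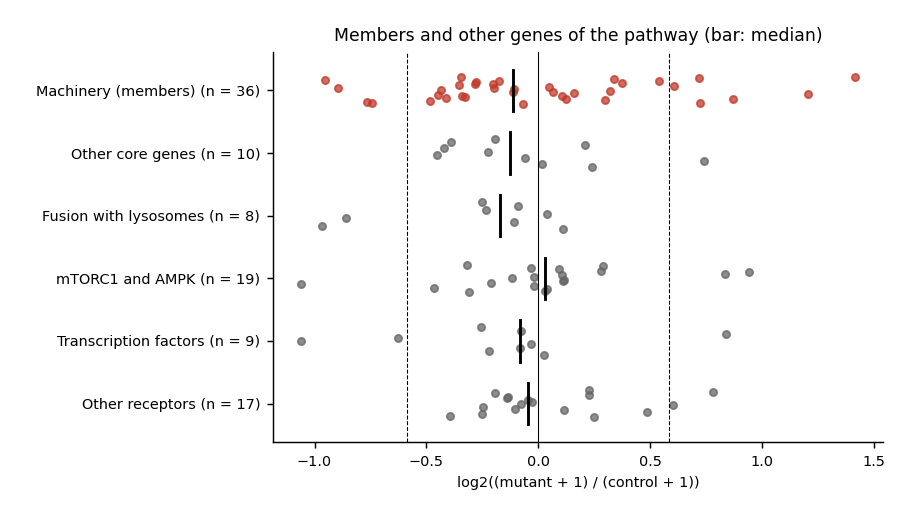
Each point is the log2 difference of a gene with reads, in rows for the 36 members and 5 further lists of the pathway, with a bar at the median and dashed lines at 1.5-fold. The spread of the members, between -0.95 and 1.41, covers that of the other lists except Prkaa2, Mitf and Plekhm1 below it.

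All members lay far above the value of genes without reads. If that value stands for 1 read added to each library, 1 RPKM on 1 kb is 28.7 reads per mutant library and 24.1 per control library on average. On the longest coding transcript, the least covered members would then hold 260 reads per mutant library (Ambra1) and 186 per control library (Wipi1). Such totals are amplified reads without molecular identifiers and rest on that reading of the constant, so they give no bound on the error, and the spread between animals is unknown here. Reads of some members may be shared with other genes. Becn1 shares 43.9% of its exon bases with the antisense gene Cntd1 (4.70 RPKM in mutants, 8.61 RPKM in controls), and Atg9a shares 32.6% with the antisense gene Ankzf1 and the same-strand gene Gm29253 together. Atg4a has a copy, Atg4a-ps, that matches 96.0% of its transcript at 99.3% identity. Gabarapl2 matches 6 processed pseudogenes over at least 300 bases, Rb1cc1 matches Gm13961 over 63.2% of its length, and Uvrag carries a repeat found in transcripts of many genes and shares 17.6% of its exon bases with Gm45187. Sqstm1 shares 17.3% with Mrnip and Atg4d 19.3% with Kri1, both antisense. These shares are of annotated bases and not of reads, so how far they affect the values of these genes is unknown.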

How the data were processed

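Values were taken from the table that the authors deposited, which, per the file headers, holds RPKM merged into 1 value for each group. Per the submitters' processing notes, Picard and edgeR were used with build mm10, in roles not stated; the aligner, annotation and merging method were not given in the sources used here. Library depth is not given either, so no interval could be computed. In 8499 genes the mutant/control ratio was the same, 0.841, and these were read as genes without reads. In 902 of 2334 such genes with 1 annotated GENCODE M21 transcript, the value equalled a constant over the transcript length within 1 base (0.0349 RPKM per kb in mutants, 0.0414 in controls).

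No test could be run, because 1 value per group leaves no replicate spread. Log2 ratios used a pseudocount of 1 RPKM, and 1.5-fold on that scale was a rule of size. The calculation was run on control values with known folds put in and no noise, which checks only the arithmetic. Members and lists were chosen with earlier results of these data known. All 36 members are named; of other lists those past 1.5-fold, and Mtor, Prkaa1 and Tfec were added after their values were seen. Alternatives were other pseudocounts, scalings and filters. Work was done in Python 3.11.15 with pandas 2.3.3 and scipy 1.17.1. Coordinates and promoters are from RefSeq (GRCm38.p6).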

Additional observations from a re-analysis of the deposited data

How the results depend on the processing

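Counts over all genes moved with the pseudocount, since low genes then pass. With 0.1 RPKM, 2926 genes were at least 1.5-fold higher and 2487 lower in mutants (37.2% either way), and with none 3319 and 2786 (42.0%). The members' counts were 7 higher and 4 lower in both settings, with Rb1cc1 added, so the share of members lay below that of all genes there. At 2-fold, 2 members were higher and 0 lower, against 534 and 504 of all genes (7.14%). Dividing the mutant column by the median ratio took Map1lc3a below 1.5-fold (5 higher, 4 lower). The mean of the members was -0.00087 in place of the median of -0.11. Under the other scalings, subtraction of the offset, and without Atg101 (a setting added after seeing the data), the median lay between -0.14 and -0.10 and 20 members were lower. No sign changed in a member past 1.5-fold. No paired analysis was possible because the table merges the numbered replicates of each group into 1 value. Leaving out replicates was not run for the same reason.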
